A study of Danio rerio with 20 samples.

Results

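The genes described here encode the constitutive proteasome, and they were read from RNA sequencing libraries of zebrafish spinal cord cells. A row of the count table was taken when its zebrafish gene symbol, case ignored, began with psma, psmb, psmc or psmd and a digit. The genes psmb8 to psmb13, which encode the immune and thymus forms of beta subunits, were left out. The rule found 42 of the 32266 genes in the table. Of these, 17 encode subunits of the core particle (10 alpha and 7 beta) and 21 encode subunits of the regulatory particle. The other 4 carry such a name without being subunits: PSMD5, PSMD9 and PSMD10 encode assembly chaperones, and PSMC3IP encodes a recombination factor. Symbols are printed as the name table gives them, often in capitals, and the Ensembl identifier is added where 2 genes share a symbol.

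The libraries came from adult fish of the genotype Tg(olig2:eGFP), in which the olig2 promoter drives green fluorescent protein. There were 10 libraries from fish whose spinal cord had been cut 7 days earlier and 10 from sham-operated fish whose cord stayed intact. Both groups carried the same reporter, and the labels call the sorted, living, reporter-positive cells oligodendrocyte progenitors. In each group pieces of about 0.5 mm from 9 cords, taken just rostral of the cut or from the matching place in sham, were dissociated together. Nothing in the labels ties a library to a fish, so the 10 libraries of a group may have been drawn from 1 shared suspension. The p-values then speak of spread among libraries, possibly a technical one, and not of spread among fish.

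The proteasome degrades proteins that carry chains of ubiquitin. Its core particle is a barrel of alpha rings, which gate the entrance, and beta rings, whose catalytic subunits cut the protein chain. The regulatory particle sits on the end of the barrel. In its base a ring of ATPases unfolds the protein, and its lid removes the ubiquitin. In oligodendrocytes and other neural cells, as elsewhere, this machinery clears misfolded proteins and short-lived regulators.

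Library totals lay between 7134670 and 10264810 counts and overlapped between the groups. A count was found for 13562 to 16518 genes in lesion libraries and for 10328 to 13117 genes in sham libraries, so that the number of detected genes moved with the group. OLIG2 was found in every library, at 5022 to 9405 CPM (the usual depth-scaled count unit, here on TMM-scaled library sizes) after lesion and 6340 to 10156 CPM in sham. SOX10, another factor of the lineage, was also found in all 20 libraries. Of the 9 matched genes of the oligodendrocyte lineage list, nkx2.2b was at 0 throughout. The progenitor markers PDGFRA (mean 0.022 CPM after lesion and 1.99 CPM in sham) and CSPG4 (4.35 and 2.10 CPM) were near 0. GPR17 had means of 10.2 and 26.7 CPM. Other genes of that list were more abundant: olig1 had 152 and 194 CPM, and 1 PTPRZ1 copy (ENSDARG00000020871) 637 and 800 CPM. The other PTPRZ1 copy had 17.1 and 2.34 CPM. Genes of myelinating oligodendrocytes summed to 69571 to 155340 CPM after lesion and 96757 to 167730 CPM in sham, and of 10 tested 1 rose and 3 fell, among them mbpb (higher) and mbpa and cldnk (lower). The cells are therefore called reporter-positive cells here. For markers of other cells, the summed level after lesion and in sham was 6.69 to 536 and 0.143 to 171 CPM for 13 microglia and macrophage genes, with LCP1, cxcr3.2, c1qa and c1qb at 0. It was 380 to 1510 and 357 to 1010 CPM for 14 neuron genes, with syt1b at 0. Some motor neuron and neurogenic genes of that list had counts only after lesion, and not in every lesion library. Among these, ISL1 had 2523 counts, MNX1 1676, NEUROD1 3442, SLC18A3 752 and CHAT 302, each against 0 in sham. Other neuron genes were found in both groups: ELAVL3 had means of 225 CPM after lesion and 281 CPM in sham, ELAVL4 103 and 131 CPM, and SNAP25 (ENSDARG00000020609) 198 and 149 CPM. Of 7 tested neuron genes 0 were called (edgeR; 0 higher and 1 lower at an unadjusted p under 0.05). The sum was 2.71 to 131 and 0 to 26.4 CPM for 8 endothelial and pericyte genes, with PDGFRB at 0 and NOTCH3 higher after lesion (mean 14.7 against 0.687 CPM, edgeR adjusted p = 0.0398). It was 4073 to 8478 and 6866 to 11028 CPM for 11 genes of ependymo-radial glia, none at 0 throughout, and at most 14.7 and 0.574 CPM for 5 erythrocyte genes, with hbaa1 and hbaa2 at 0. Most of the glial sum came from the GLUL copies, both of which fell, as did 1 SLC1A3 copy, while other glial genes rose: GFAP had a mean of 209 CPM after lesion against 16.3 CPM in sham (edgeR adjusted p = 0.0296), and FOXJ1 81.2 against 0.446 CPM (edgeR adjusted p = 0.000484). The untested her4.1 had a mean of 68.3 against 0.11 CPM. The 14 proliferation genes, none at 0 throughout, summed to 118 to 1497 and 116 to 781 CPM, and 0 of 9 tested passed the test in either direction (edgeR; 1 higher and 0 lower at an unadjusted p under 0.05), with mki67, not tested, at 1448 counts after lesion and 1 in sham. The part of these other cells in the proteasome results was not tested.

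Many proteasome genes were higher after lesion, 10 in the core and 6 in the regulatory particle. Of 17 core genes, all tested, 10 rose and 0 fell (edgeR quasi-likelihood test, Benjamini-Hochberg adjusted p under 0.05 over 10467 genes). In the regulatory particle 6 of 19 tested genes rose, with 0 in the other direction. As background, 4.34% of all tested genes were called higher and 3.24% lower. Every one of the 36 tested subunits had a positive log2 fold change, as against 51.6% of all tested genes. The median was 0.66 in the core, 0.54 in the regulatory particle and 0.03 over all tested genes. No member had an unadjusted p under 0.05 in the lower direction. DESeq2 called 11 core and 6 regulatory genes higher and 0 lower, where it called 5.17% of all genes higher and 5.37% lower. Limma-voom called 14 and 9 higher and 0 lower, beside 13.2% and 3.7% of all genes. Its median log2 fold change over all genes was 0.70, where edgeR had 0.03. In the core its median was 0.68 and in the regulatory particle 0.67, where edgeR had 0.66 and 0.54. The source of the all-gene shift was not tested. In such libraries, more cells that express a gene and more RNA per cell cannot be told apart.

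**Figure D1:**
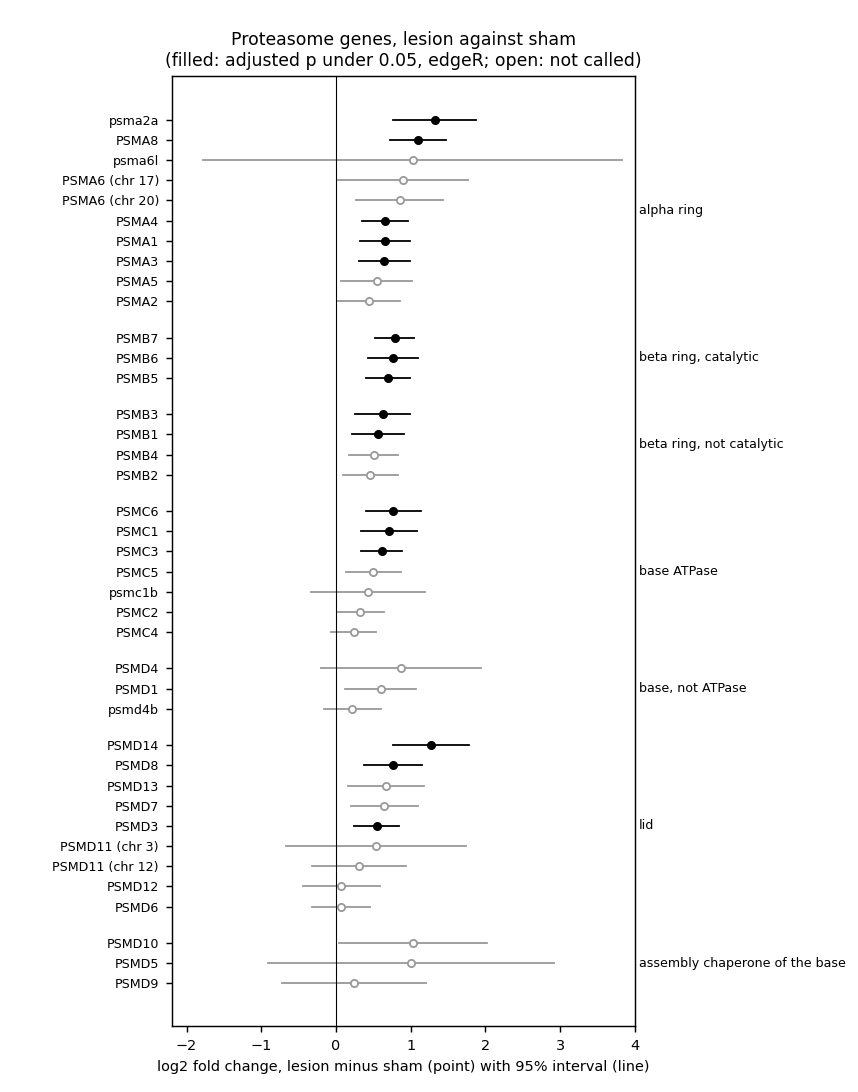
Log2 fold change of the 39 tested members (x axis, lesion minus sham) with its 95% interval, grouped by role. Filled points were called higher by edgeR at an adjusted p under 0.05, open points were not called, and all points lie above 0.

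Proteasome genes are abundant, and abundant genes were called more often. Among genes with a mean of at least 100 CPM over all libraries, 20.2% were called higher (330 of 1630). In that range 9 of 12 core genes and 6 of 14 regulatory genes were called. A fit that added each library's count of detected genes, which does not overlap between the groups, called 0 core and 0 regulatory genes (edgeR; 4 and 1 higher at an unadjusted p under 0.05) and 1.34% of all genes higher. The estimates of that fit had a median of 0.63 in the core and 0.47 in the regulatory particle, with 34 of 36 subunits positive. Over all tested genes its median was -0.13. The calls of partner genes given further on were lost in that fit too. In row B alone, of those named, only PSME1 and rps27a were called. In row A of the sample titles alone, with 6 libraries per group, 7 core and 3 regulatory genes rose (3.09% of all genes). In row B alone, with 4 libraries per group, 0 and 0 were called (edgeR; 7 and 4 higher at an unadjusted p under 0.05; 1.98% of all genes). The row B medians were 0.56 in the core and 0.39 in the regulatory particle, with 35 of 36 subunits positive. Without lesion replicates 2, 9 and 10, left out together, 7 and 5 were called (2.9% of all genes). These libraries are all of row A and had the most detected genes (15970, 16518 and 15693). The column number in the sample titles ran from 1 to 6 in sham and from 7 to 12 after lesion. Effects of column and of lesion therefore cannot be told apart, within rows either.

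The 3 catalytic beta subunits all rose. PSMB5 (ENSDARG00000075445, chromosome 2, 38390944 to 38410247, GRCz10) encodes the subunit that cuts after hydrophobic residues. It was at 172 to 299 CPM after lesion (median 234) and at 112 to 192 CPM in sham (median 138), and 9 of 10 lesion libraries lay above the highest sham library. Its log2 fold change was 0.69 ± 0.14 (SE; edgeR adjusted p = 0.0022). PSMB6 (ENSDARG00000002240, chromosome 23, 44720406 to 44729632), whose product cuts after acidic residues, was at 188 to 294 CPM (median 269.7) against 97.6 to 239 CPM (median 150.5). The groups overlapped where lesion replicates 6 and 8 fell below sham replicates 2 and 4, and the other 8 lesion libraries lay above all sham libraries (log2 fold change 0.76 ± 0.16, edgeR adjusted p = 0.00239). PSMB7 (ENSDARG00000037962, chromosome 21, 8249235 to 8259556), whose product cuts after basic residues, was at 209 to 362 CPM (median 329.6) against 139 to 242 CPM (median 174). Only lesion replicate 3 was below the highest sham library, and the log2 fold change was 0.79 ± 0.13 (edgeR adjusted p = 0.000119). In row A alone PSMB5 was not called (adjusted p = 0.0603).

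The other beta subunits shape the ring and do not cut. PSMB3 was at 145 to 269 CPM after lesion (median 207) and at 57.0 to 176 CPM in sham (median 134), and its log2 fold change was 0.63 (edgeR adjusted p = 0.0292). PSMB1 was at 202 to 344 CPM (median 257) against 124 to 262 CPM (median 152), with 0.56 (edgeR adjusted p = 0.0374). In both genes the groups overlapped, with 8 and 5 of the 10 lesion libraries above the highest sham library. Both calls were weak. PSMB3 lost its call, as did PSMB1, without lesion replicates 2, 9 and 10 (adjusted p = 0.188 and 0.281). PSMB3 was also lost without any 1 of lesion replicates 1, 2, 5 and 9 or sham replicates 3, 4, 5 and 10 (adjusted p up to 0.0815). PSMB1 was also lost without any 1 of lesion replicates 1, 2, 3, 4, 5, 9 and 10 or sham replicates 1, 3, 4, 7, 8, 9 and 10 (adjusted p up to 0.114). With DESeq2 size factors in edgeR their adjusted p was 0.0594 and 0.0854. PSMB4, which had the highest level per kilobase of exon in the core, was at 211 to 421 CPM (median 316) against 141 to 329.9 CPM (median 221). Its log2 fold change of 0.50 narrowly missed the threshold (edgeR adjusted p = 0.056) and passed it without lesion replicate 6 or 8 or sham replicate 1 or 4 (adjusted p down to 0.0195). For PSMB2 the estimate was 0.46 with a 95% interval of 0.10 to 0.82 (edgeR adjusted p = 0.144).

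Alpha subunits form the outer rings and the gate of the core, and 5 of 10 rose. PSMA8 (ENSDARG00000010965, chromosome 20, 18406539 to 18414281), which the RefSeq names of assembly GRCz12tu also list as psma7, was at 189 to 340.3 CPM after lesion (median 259). In sham it was at 55.4 to 177 CPM (median 122). Every lesion library lay above every sham library, which was the case for 1.45% of all tested genes, and the level rose 2.15-fold (95% interval of the log2 fold change 0.73 to 1.48, edgeR adjusted p = 0.000155). The largest fold of the core was that of psma2a (ENSDARG00000040121, chromosome 16, 43432815 to 43441112). It was at 56.9 to 112 CPM (median 96.5) against 16.3 to 66.3 CPM (median 29.7), 2.49-fold higher (log2 fold change 1.32 ± 0.27, edgeR adjusted p = 0.00191). The groups overlapped where lesion replicate 5, the lowest, fell below sham replicates 1 and 4, and the other lesion libraries lay above all sham libraries. PSMA8 and psma2a were not called in row B alone, but were in all 20 fits that left out 1 library.

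PSMA1, PSMA3 and PSMA4 rose by nearly the same amount. PSMA1 was at 199 to 349.6 CPM after lesion (median 269) and at 109 to 266 CPM in sham (median 177), and the log2 fold change was 0.66 (edgeR adjusted p = 0.0091). PSMA3 was at 205 to 398 CPM (median 327) against 108 to 261 CPM (median 222), with 0.65 (edgeR adjusted p = 0.0128). PSMA4 was at 140.1 to 243 CPM (median 213) against 95.5 to 182 CPM (median 125), with 0.66 (edgeR adjusted p = 0.00456). The groups overlapped in all of these, most in PSMA1, where 5 lesion libraries lay above the highest sham library, and least in PSMA4, where 9 did and lesion replicate 8 did not. PSMA3 lost its call without lesion replicates 2, 9 and 10 (adjusted p = 0.0728), and PSMA4 in row A alone (adjusted p = 0.127).

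**Figure D2:**
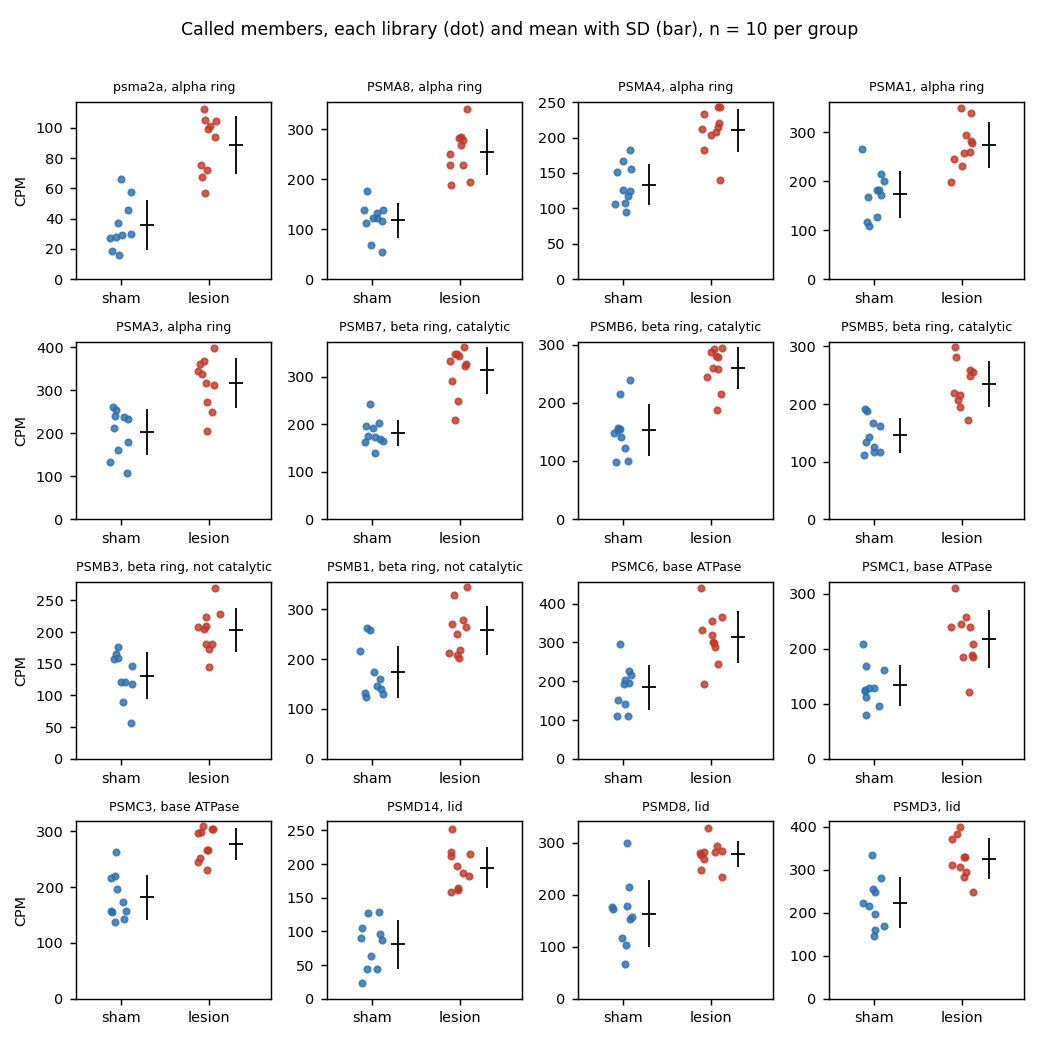
CPM (y axis, from 0) of the 16 called members in each sham and lesion library (dots), with the mean and SD beside them, n = 10 per group. The groups are apart in PSMA8 and PSMD14 and overlap in the other 14.

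The copies of alpha subunits did not all pass the test. PSMA2 on chromosome 19 had 68.1 to 116 CPM after lesion and 32.8 to 97.9 CPM in sham, a log2 fold change of 0.44 (95% interval 0.02 to 0.86, edgeR adjusted p = 0.276), beside 1.32 for psma2a. The difference between these copies was not tested. The PSMA6 gene on chromosome 17 (ENSDARG00000019398) was at 34.2 to 111 CPM against 2.84 to 119.7 CPM, and that on chromosome 20 (ENSDARG00000013966) was at 41.4 to 108 CPM against 15.8 to 67.1 CPM. Their log2 fold changes were nearly equal, 0.90 ± 0.42 and 0.85 ± 0.28, and neither was called (edgeR adjusted p = 0.292 and 0.0703). The chromosome 20 copy was called without lesion replicate 6 or sham replicate 10 (adjusted p down to 0.0468). It shares 195 exon bases with nfkbiaa, an inhibitor of NF-κB on the other strand that was itself called higher. Strand was ignored in counting, so that reads of this stretch cannot be told apart. The third relative, psma6l, had the lowest level of the core, at 0 to 19.0 CPM after lesion (median 8.76) and 0 to 16.4 CPM in sham (median 0), with no count in 2 lesion and 6 sham libraries. For PSMA5 the estimate was 0.54 (edgeR adjusted p = 0.206), and it was called only without sham replicate 5, its highest library in sham (adjusted p = 0.0454).

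In the base of the regulatory particle 3 of 7 ATPase genes rose. PSMC6 was at 193 to 440.4 CPM after lesion (median 310.2) and at 109 to 297 CPM in sham (median 194), and its log2 fold change was 0.77 ± 0.18 (edgeR adjusted p = 0.00636). PSMC1 was at 121 to 311 CPM (median 224) against 80.4 to 209 CPM (median 127), with 0.71 ± 0.18 (edgeR adjusted p = 0.0128). PSMC3 was at 230.2 to 309 CPM (median 281) against 137 to 262 CPM (median 166), with 0.61 ± 0.13 (edgeR adjusted p = 0.00321). The groups overlapped in all of these, and PSMC1 had its lowest lesion value in replicate 6, below the sham median. PSMC1 shares 128 exon bases with nkl.2, a gene with only 97 counts in all libraries together. PSMC6 lost its call in row A alone (adjusted p = 0.0556).

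The ATPases work as 1 ring, and the estimates of their genes ran from 0.24 to 0.77. Their 95% intervals overlapped, and differences between them were not tested. PSMC4, the most abundant regulatory gene per kilobase, was at 282 to 549 CPM after lesion (median 413) and at 235 to 488 CPM in sham (median 378). Its log2 fold change was 0.24 with a 95% interval of -0.07 to 0.54 (edgeR adjusted p = 0.53). PSMC2 had 0.33 with an interval of 0.02 to 0.64 (edgeR adjusted p = 0.279). PSMC5, at 0.50 with an interval of 0.13 to 0.86, was called without lesion replicate 6 (edgeR adjusted p = 0.0482, and 0.103 with all libraries). The second PSMC1 copy, psmc1b, was at 47.5 to 133 CPM against 3.29 to 121 CPM, too widely spread for a narrow estimate (0.42, interval -0.34 to 1.19).

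The part of the base without ATPases receives the ubiquitin chain, and 0 of its 3 tested genes were called by edgeR (1 had an unadjusted p under 0.05, higher). PSMD4 and psmd4b are copies of a ubiquitin receptor gene. PSMD4 was at 11.9 to 39.8 CPM after lesion (median 27.4) and 0.58 to 25.6 CPM in sham (median 16.8), and it was the lowest of the regulatory genes with counts. The more abundant psmd4b was at 97.5 to 213 CPM (median 164) against 64.4 to 192 CPM (median 145). Their log2 fold changes were 0.87 (95% interval -0.20 to 1.94) and 0.22 (-0.17 to 0.60), and the groups overlapped in both. PSMD4 also shares 580 exon bases with another gene. PSMD1, a scaffold of the base, had 0.60 (edgeR adjusted p = 0.153) and was called only without sham replicate 9, its highest sham library (adjusted p = 0.022). Both genes named PSMD2 lie on unplaced scaffolds and had no count in any library, which allows up to 0.37 CPM in a sham library on average. Reads that match several places can fall below the required mapping quality. Whether this happened here was not tested, and these zeros are not read as a measure of its RNA. The regulatory sums given below therefore hold no PSMD2 counts.

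The lid held the strongest change of the regulatory particle. PSMD14 (ENSDARG00000063100, chromosome 11, 10848868 to 10867244) encodes the enzyme that removes ubiquitin chains from proteins bound for the core. It was at 159 to 252 CPM after lesion (median 192) and at 22.7 to 129 CPM in sham (median 88.8). All lesion libraries lay above all sham libraries, the level rose 2.41-fold (log2 fold change 1.27 ± 0.25, edgeR adjusted p = 0.00105), and the call held in all 20 fits that left out 1 library. PSMD8 was at 235 to 328 CPM (median 281) against 67.6 to 299 CPM (median 165), and its log2 fold change was 0.76 ± 0.19 (edgeR adjusted p = 0.0105). Here lesion libraries were close together and sham libraries far apart, and sham replicate 9 reached above 9 of the 10 lesion libraries. PSMD3, a scaffold of the lid, was at 249 to 400.3 CPM (median 320.5) against 146 to 335 CPM (median 220.0), with 0.54 ± 0.15 (edgeR adjusted p = 0.02), and 3 lesion libraries lay above the highest sham library. It lost its call when lesion replicate 5 was left out (adjusted p = 0.0503) or without replicates 2, 9 and 10 together (adjusted p = 0.0703), and PSMD3 and PSMD8 were not called in row A alone (adjusted p = 0.194 and 0.123).

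Other lid genes differed little or were too variable. PSMD6 was at 88.8 to 273 CPM after lesion and 112 to 254 CPM in sham, a log2 fold change of 0.07 with a 95% interval of -0.32 to 0.46. PSMD12 had 0.07 with an interval of -0.44 to 0.58, and its sign changed with the library left out. PSMD13 (0.67, edgeR adjusted p = 0.117) and PSMD7 (0.64, edgeR adjusted p = 0.0765) had estimates like those of called genes with a wider spread, and PSMD7 was called without lesion replicate 4 (adjusted p = 0.0461). PSMD7 shares 916 exon bases with pkd1l2b on the other strand, a gene with 87 counts in all libraries together. The PSMD11 copies had 0.31 on chromosome 12 (ENSDARG00000005134) and 0.54 on chromosome 3 (ENSDARG00000060150, 0.133 to 164 CPM in sham), and neither was called (edgeR adjusted p = 0.799 and 0.84).

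Of the genes that share the name without being subunits, 0 of the 3 assembly chaperones were called by edgeR (1 had an unadjusted p under 0.05, higher). PSMD10 was at 25.7 to 114 CPM after lesion and 1.46 to 53.0 CPM in sham (log2 fold change 1.03 ± 0.48, edgeR adjusted p = 0.29). PSMD5 had 1.01 ± 0.92 and PSMD9 0.25 ± 0.47. PSMC3IP, which acts in recombination, was not tested. It had 220 counts in 6 lesion libraries and 0 in sham.

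**Figure D3:**
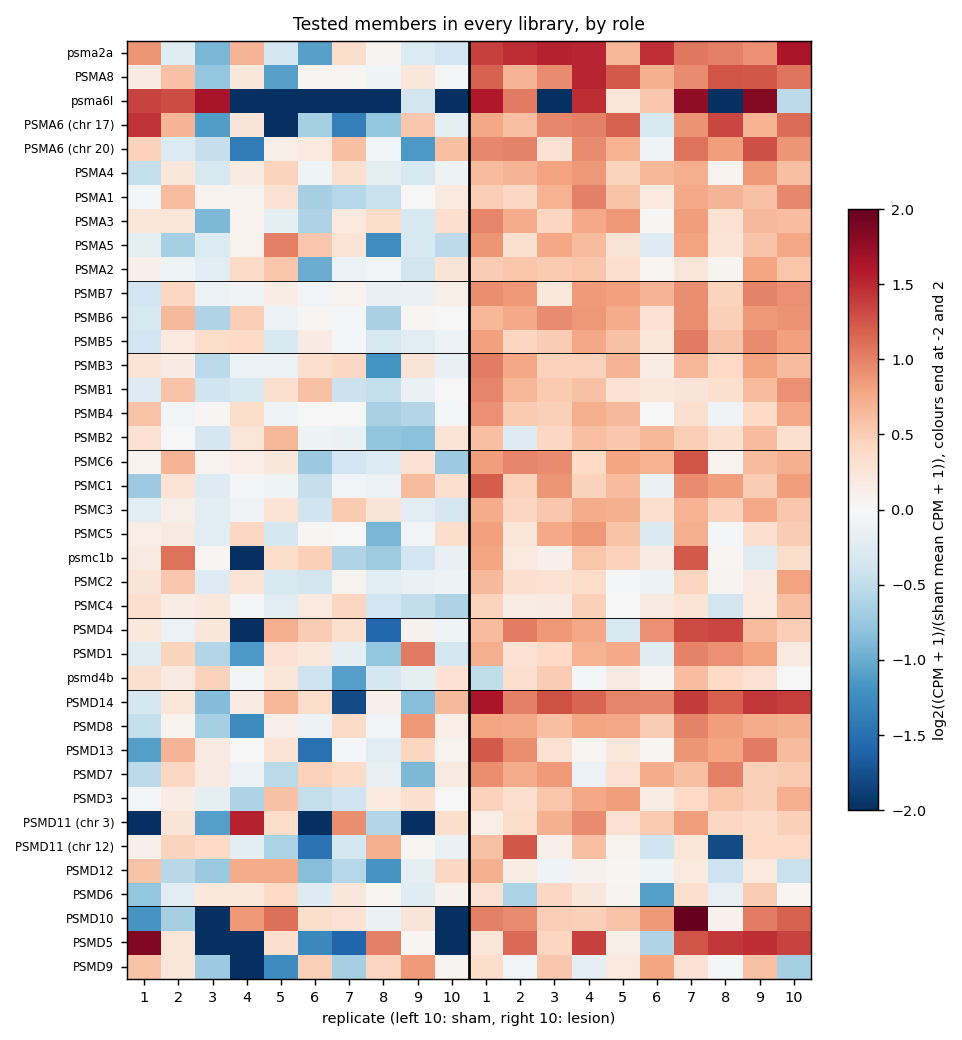
Log2 ratio of each library's level to the sham mean, as log2((CPM + 1)/(sham mean CPM + 1)), for 39 tested members (rows, by role) in 10 sham (left) and 10 lesion libraries (right), with colours that end at -2 and 2. Lesion columns are mostly red, lesion replicate 6 is the lowest lesion column in 21 rows, and sham columns are more mixed.

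Libraries differed within each group in ways that many members shared. Lesion replicate 6 was the lowest lesion library in 21 of 39 members, and it lay above the sham median in 28. Lesion replicate 7 lay above the sham median in all 39. In sham, replicate 8 exceeded the sham median in only 8 members and replicate 2 in 31. Relative to the mean, the spread was mostly larger in sham. The coefficient of variation there exceeded that of the lesion libraries in 35 of 39 members. Such a share over all tested genes was not computed. The median coefficient was 30.2% in sham and 21.3% after lesion. In CPM, the SD of the summed levels was larger after lesion. It was 394 against 298 in sham for the core and 409 against 285 for the regulatory genes. Without lesion replicate 6, 12 core and 7 regulatory genes were called.

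Summed over the core genes, lesion libraries had 2677 to 3890 CPM (median 3487) and sham libraries 1645 to 2581 CPM (median 2189). The groups did not overlap, and the means were 3430.3 ± 394 and 2144 ± 298 CPM (SD, n = 10). Summed over the regulatory genes, the levels were 2909 to 4290 CPM (median 3782) and 2231 to 3150 CPM (median 2606), with means of 3718 ± 409 and 2630 ± 285 CPM (SD, n = 10). These groups overlapped, and lesion replicate 6, the lowest, lay below sham replicate 2, the highest. The sum over the regulatory genes divided by that over the core genes was 1.09 ± 0.0622 (SD, n = 10) after lesion and 1.24 ± 0.146 (SD, n = 10) in sham, with overlapping ranges of 1.00 to 1.20 and 1.05 to 1.49. A difference between the particles was not tested, since the genes were chosen with earlier results known. Within rows the ratio of means was 1.72 for the core and 1.46 for the regulatory genes in row A, and 1.44 and 1.35 in row B. Without lesion replicates 2, 9 and 10 these ratios were 1.57 and 1.41 over both rows.

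**Figure D4:**
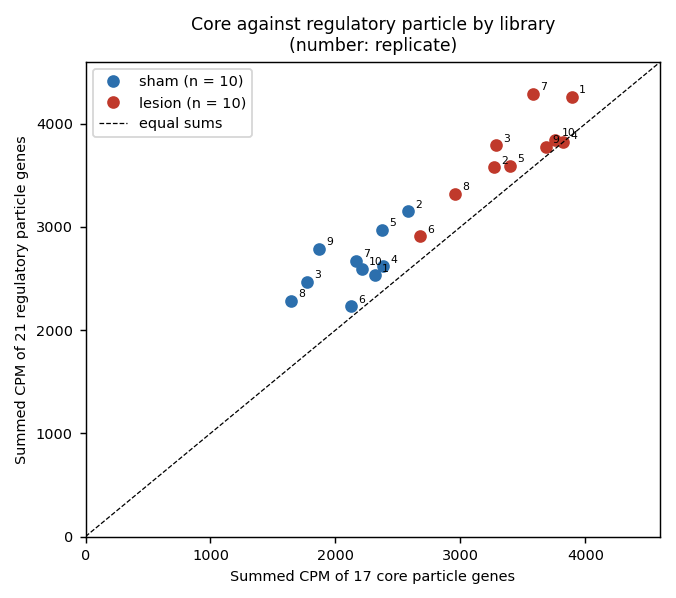
Summed CPM of the 21 regulatory genes (y axis) against that of the 17 core genes (x axis) in each of 10 sham and 10 lesion libraries, numbered by replicate, with a dashed line at equal sums. Lesion libraries lie to the right of all sham libraries, from 2677 CPM on, and most are nearer to the dashed line.

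Subunits are built into the particle in equal numbers, but the messenger RNA levels of single genes were unequal. Copies of a subunit gene were not summed. Per kilobase of exon, mean sham levels in the core ran from 3.19 CPM per kilobase for psma6l to 230.4 for PSMB4. The catalytic PSMB5, PSMB6 and PSMB7 stood at 111, 121 and 146 CPM per kilobase. In the regulatory particle, genes with counts ran from 8.32 CPM per kilobase for PSMD4 to 183 for PSMC4. The lowest gene of each particle has more abundant relatives. In sham the PSMA6 genes stood at 38.8 and 41.4 CPM per kilobase, and psmd4b at 90.7. These ranges are therefore of genes and not of subunits. After lesion, PSMD14 moved from 70.4 to 169 CPM per kilobase, while the lid gene PSMD6, with the higher sham level, stood at 134 and 141. Neighbours in this order mostly differed by less than their SD, for example PSMB6 (121 ± 35.8 CPM per kilobase in sham, n = 10) and PSMB5 (111 ± 22.9). Exon lengths come from the annotation, and how evenly reads covered the genes is not given in the sources used here.

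**Figure D5:**
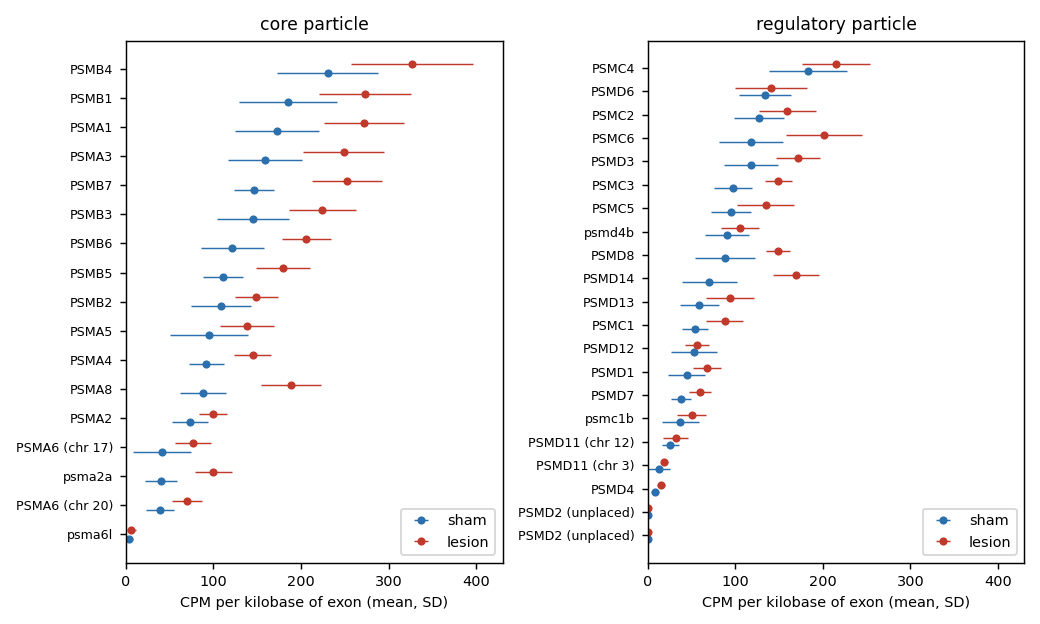
Mean CPM per kilobase of exon (x axis, bars are SD, n = 10) of core genes (left) and regulatory genes (right) in sham and lesion libraries, ordered by the sham level. PSMB4 and PSMC4 are highest. Mean and SD do not show whether single libraries of the groups overlap.

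The immune and thymus beta subunits, which replace the catalytic ones in other proteasome forms, were below them in level. PSMB10 was the most abundant of those matched, at a mean of 80.8 CPM in sham and 85.8 CPM after lesion. It had counts in every library. In sham libraries PSMB8 was at 4.58, PSMB9 at 2.28 and PSMB10 at 38.1 CPM per kilobase, next to 111 for PSMB5, 121 for PSMB6 and 146 for PSMB7, which they replace. Of 6 matched genes 3 were tested, and 0 rose and 0 fell (edgeR; 0 and 0 at an unadjusted p under 0.05). Their log2 fold changes were 1.04 ± 1.36, 1.13 ± 1.25 and 0.09 ± 0.24. The gene psmb11b was at 0 throughout.

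As background for the lists that follow, 4.34% of all tested genes were called higher, and 20.2% of those at 100 CPM or more. Among partners of the proteasome, 2 of 5 tested activators and inhibitors rose and 0 fell, with a median log2 fold change of 1.03. They were PSME1 (73.3 ± 23.5 CPM in sham, 149.8 ± 39.8 after lesion, n = 10; edgeR adjusted p = 0.00347) and PSME2 (34.4 ± 20.4 and 86.4 ± 31.9 CPM, edgeR adjusted p = 0.0197), which together form an activator of the core. The inhibitor gene PSMF1 had -0.13 (edgeR adjusted p = 0.944). In row A alone neither activator gene was called (adjusted p = 0.231 and 0.214), PSME2 was not called in row B either (adjusted p = 0.368), and it was not called without lesion replicates 2, 9 and 10 (adjusted p = 0.131). Of 12 assembly and associated genes 2 rose and 0 fell, with a median of 0.40. TXNL1, which encodes a thioredoxin that binds the proteasome, went from 61.0 ± 29.1 to 132 ± 28.3 CPM (edgeR adjusted p = 0.00644), a call lost in row A alone. UCHL5, a deubiquitinase of the regulatory particle, went from 38.3 ± 19.5 to 74.9 ± 17.1 CPM (edgeR adjusted p = 0.0405), a call lost without any 1 of lesion replicates 1, 2, 3, 4, 5, 7, 9 and 10 or sham replicates 4, 5, 6, 7 and 10 (adjusted p up to 0.0853). POMP, a chaperone of core assembly, had 0.37 ± 0.15 (edgeR adjusted p = 0.178).

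Upstream of the proteasome, 4 of 20 genes for ubiquitin and its attachment rose and 0 fell, with a median log2 fold change of 0.34. The list mixes genes above and below 100 CPM. For example, ubc had means of 1977 CPM in sham and 2185 CPM after lesion, and UBE2D3 55.2 and 56.2 CPM. Neither 4.34% (all tested genes) nor 20.2% (those at 100 CPM or more) is therefore a close match. The 4 of 20 is not read as a result about the list. Among the 4 was rps27a, which encodes ubiquitin fused to a ribosomal protein (395.7 ± 99.2 to 912 ± 241 CPM, n = 10 per group, edgeR adjusted p = 1.71e-05). The polyubiquitin genes were not called: UBB had a log2 fold change of -0.18, ubb -0.35 (unadjusted p = 0.0325, edgeR adjusted p = 0.24) and ubc 0.14. The activating enzyme gene uba1 rose by 0.95 and the conjugating enzyme gene ube2d1b by 0.86, both as log2 fold changes (edgeR adjusted p = 0.0416 and 0.0342). Both calls were lost in 13 of 20 fits that left out 1 library, with adjusted p up to 0.0972 and 0.0811. For uba1 these were the fits without lesion replicates 1, 2, 5, 7, 8 and 9 and sham replicates 1, 4, 5, 6, 7, 8 and 9, and for ube2d1b those without lesion replicates 1, 2, 3, 5, 8, 9 and 10 and sham replicates 3, 5, 6, 7, 9 and 10. Of 11 genes for ubiquitin shuttles and the p97 unfoldase 1 rose and 0 fell, with a median of 0.15. It was VCP, the p97 gene itself, from 386 ± 80.8 to 683 ± 106 CPM (log2 fold change 0.82 ± 0.13, edgeR adjusted p = 0.000152).

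Among transcription factors and helpers known to act on proteasome genes, 1 of 12 rose and 0 fell, with a median log2 fold change of 0.53. It was bach1a, a repressor that competes for antioxidant response elements, at 0.717 ± 1.14 CPM in sham and 9.77 ± 5.42 CPM after lesion (edgeR adjusted p = 0.00619). The activator gene nfe2l1b, whose mammalian counterpart induces proteasome genes when the proteasome is blocked, had 71.5 ± 43.7 and 135.7 ± 37.1 CPM (0.92 ± 0.36, edgeR adjusted p = 0.147).

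For comparison, the chaperonin, another ring complex of the cytosol, had 7 of 7 tested genes higher and 0 lower, with a median log2 fold change of 0.89. CCT4 had the highest log2 fold change, 1.48 (edgeR adjusted p = 1e-05), and CCT3, CCT4, CCT5 and CCT7 were called in all 20 fits that left out 1 library, while TCP1, cct2 and CCT8 were not. Of 15 tested genes of the COP9 signalosome and the initiation factor eIF3, 5 rose and 1 fell, with a median of 0.55. These complexes are built like the lid wholly or in part, and not every listed gene encodes a lid-like subunit. All the called genes were eIF3 genes. No tested COP9 gene was called, with log2 fold changes from -0.19 (COPS2) to 0.64 (cops8). EIF3M rose by 1.02 and EIF3B (ENSDARG00000059654) by 0.88 (edgeR adjusted p = 0.000145 and 0.000481), while 1 of the EIF3H copies (ENSDARG00000036116) fell by 0.87 (edgeR adjusted p = 0.036). That fall was lost in 14 of 20 fits that left out 1 library. All chaperonin and eIF3 calls were lost in row B alone and with detected genes as a covariate. For example, the edgeR adjusted p was 0.155 and 0.067 for CCT4, and 0.119 and 0.281 for EIF3M. Whether these complexes differ from the proteasome was not tested.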

How the data were processed

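The values are raw counts of reads in genes, in a single table from the authors. The submitters' processing notes name bcl2fastq 2.19.1, the aligner GSNAP, the build GRCz10 and featureCounts 1.6.2; strand was ignored, mapping quality was at least 1 and genes followed Ensembl release 87, per the file headers. Exon lengths were taken from the deposited table. Columns were matched to samples by title. The 92 spike-in rows (2 counts in all) were left out. Symbols cover 26433 of 32266 genes. Promoter and protein sequences were not used here.

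Lesion and sham were compared with edgeR 4.0.16 in R 4.3.3 (filterByExpr, TMM, quasi-likelihood F test, group only, two-sided) over 10467 genes; SE is the absolute log2 fold change over the square root of F. DESeq2 1.42.0 and limma 3.58.1 (voom) were alternatives. The tests were tried on simulated counts. Intervals use that SE and a t quantile; the limit of 3 counts for a gene at 0 covers counting error only. Other alternatives were DESeq2 size factors, no filter, the row letter of the titles, detected genes as a covariate and left-out libraries. Ranges and medians are given for called members, catalytic subunits, PSMD4, PSMD14 and the highest and lowest level per kilobase in each particle, and paralogs side by side; of other lists the called genes are named, at most 4 by smallest p, and some genes are not reported here. Members, lists and tests were chosen with earlier results of these data known.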

Additional observations from a re-analysis of the deposited data

Results flagged for a closer look

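Among the 39 tested members, 78 groups of 10 libraries were examined for a library far from the others, and 3 stood apart, where chance gives about 1 in 20 or 3.9. PSMB2 was at 149.4 CPM in lesion replicate 2, with the next library at 223 CPM. PSMD10 was at 114.2 CPM in lesion replicate 7, with the next at 56.1 CPM. PSMD12 was at 235.6 CPM in lesion replicate 1, with the next at 164 CPM. None of these genes was called by edgeR.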

How the results depend on the processing

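No paired analysis was possible because the labels give nothing that links a lesion to a sham library, and the replicate numbers used here only name libraries in accession order. Over 20 fits that left out 1 library, 8 to 12 core and 5 to 7 regulatory genes were called higher and 0 lower. In row A alone 3 regulatory genes were higher. In row B alone, and with detected genes as a covariate, 0 core and 0 regulatory genes were. The counts over all genes, 454 higher and 339 lower, became 207 and 40 in row B alone, 140 and 36 with the covariate and 2780 and 758 without a filter, and they ranged from 395 to 511 and from 295 to 382 with 1 library left out. Limma-voom gave 1380 higher, DESeq2 562 lower and row A alone 201 lower. The median log2 fold change of all genes was 0.70 with limma-voom, beside 0.68 in the core and 0.67 in the regulatory particle. It was 0.21 without a filter, beside 0.66 and 0.55, and -0.13 with the covariate, beside 0.63 and 0.47. PSMD12 reversed in row B alone (-0.056), with the covariate (-0.13) and without lesion replicate 1 or sham replicate 3, 6, 7 or 8 (range over all 20 left-out libraries -0.038 to 0.18). PSMD11 (ENSDARG00000005134) reversed with the covariate (-0.14), and PSMD6 with the DESeq2 test and with DESeq2 size factors (-0.0019 in both). OLIG2, at -0.15, reversed in row B alone (0.051) and with the covariate (0.10), and SOX10, at -0.10, in row B alone (0.051) and without sham replicate 8 (range -0.16 to 0.014). The causes were not tested. Without lesion replicates 2, 9 and 10, 12 subunits were called, all among the 16. PSMC3IP, with 220 counts over 6 lesion libraries and 0 in sham, did not pass the filter on low counts and was not tested in the main fit.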
